A study of Mus musculus with 5 samples.

Results

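The cells described here were the blood vessel endothelial cells of the developing mouse penis, the cells that line arteries, capillaries and veins. They came from single-cell RNA sequencing of whole tissue and were chosen by measured values, the UMIs (unique molecular identifiers, 1 per captured transcript) of marker genes. A penis cell was kept when it had 500 to 6000 detected genes, at most 5% of its UMIs from mitochondrial genes and a ratio of log10 genes to log10 UMIs of at least 0.8. A kept cell was counted as blood endothelial when it had at least 1 UMI of 3 or more of the 6 marker genes *Pecam1*, *Cdh5*, *Kdr*, *Emcn*, *Tie1* and *Egfl7*. Cells with a UMI of 2 or more of the lymphatic genes *Prox1*, *Mmrn1*, *Flt4* and *Reln* were then dropped. The rule found 1220 blood endothelial cells among 19581 kept penis cells (423, 456 and 341 in the 3 libraries), and 1937 among all 62152 kept cells of the series.

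The penis libraries came from male mice at postnatal day 6, labelled C57BL/6N, and the study's methods give 3 mice from 2 litters with the prepuce removed. The same rule was applied to 1 forelimb and 1 hindlimb library of embryos labelled C57BL/6N and embryonic day 15, which gave 394 cells among 22057 and 323 cells among 20514. The limb cells were kept with the wider limits of the study's methods, namely 100 or more genes, a ceiling of 9000 (forelimb) or 9500 (hindlimb), and up to 10% mitochondrial UMIs. All 5 libraries came from tissue dissociated on a gentleMACS instrument and were captured with a 10X Genomics 3′ kit, and the labels give no allele beside the strain. The study's methods instead name C57BL/6J for its mice, and which strain was used cannot be settled here. Which animal or embryo went into which library is not labelled, and the methods give 6 limb embryos, so the p-values below measure only the spread between these libraries, which may be technical. Tissue, age and preparation cannot be told apart in any comparison of penis with limb. With 1 forelimb and 1 hindlimb library, the limbs were used as 1 group of 2.

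Endothelial cells sense vascular growth factors through VEGF receptors such as KDR, hold to each other through VE-cadherin (*Cdh5*) and PECAM1, and sit on a basement membrane that they share with pericytes. Arteries are set apart by Notch signalling, veins by the transcription factor NR2F2, and venous cells carry the selectins that catch leukocytes. In the penis, endothelial cells also line the blood spaces of the erectile tissue, where they release nitric oxide and endothelin onto the smooth muscle around them.

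The kept penis libraries held between 51529854 and 68417925 UMIs, and their blood endothelial cells between 3399235 and 4773445. A penis blood endothelial cell had a median of 9279 UMIs, close to the 9352 of the other kept penis cells, and a limb blood endothelial cell had 7026 against 5683 in the other limb cells. No barcode of a blood endothelial cell was shared between libraries. UMIs were summed over the cells of each library and are given as CPM (counts scaled to the same total in every sum). CPM from 3′ counts compares 1 gene between cell groups and is not used here to rank genes against each other.

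The 6 marker genes chose the cells, and their levels are given as a description. *Cdh5* stood at 733, 669.5 and 719.6 CPM in the blood endothelial cells of penis 1, 2 and 3 and at 15.3, 15.3 and 19.5 CPM in the other penis cells. *Emcn*, which encodes the endothelial surface protein endomucin, stood at 1059, 931 and 1026 CPM against 21.7, 18.8 and 23.4 CPM. *Pecam1*, which leukocytes and platelets also carry, stood at 758, 646 and 767 CPM against 68.9, 65.9 and 75.9 CPM. The levels of 23 other pan-endothelial genes that the rule did not read are a description too, since a choice by endothelial markers favours such genes. All 23 were higher in the chosen cells than in the other penis cells of the same libraries, with a median log2 fold-change of 4.89 and a range of 1.52 to 5.88. Pan-endothelial genes do not part blood from lymphatic endothelium, so the name blood endothelial cells rests on the rule.

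Most kept penis cells lay far from the threshold of 3 markers. Across the 3 libraries 11949 cells had none of the 6 markers, 5356 had 1, 787 had 2, 123 had 3 and 902 had all 6. Just outside the threshold, cells with 2 markers held 422, 496 and 482 CPM of the 23 pan-endothelial genes summed. Just inside it, cells with 3 markers held 1665, 1617 and 1535 CPM, and cells with 4 or more held 8906, 8360 and 9125 CPM. The penis cells at the edge numbered 37, 47 and 31, so they had little weight in the sums. In the limb the same edge was less clean: 86 forelimb and 85 hindlimb cells with 3 markers held only 580 and 593 CPM, against 5784 and 5986 CPM in limb cells with 4 or more. Limb cells with 0 markers held 315 and 316 CPM. Without the cells at the edge the forelimb sum fell from 3941419 to 2769824 UMIs and the hindlimb sum from 3793037 to 2562115. In penis 1 it fell from 4386236 to 4118343, in penis 2 from 4773445 to 4408648 and in penis 3 from 3399235 to 3175771. The limb edge cells thus had a large weight in the limb sums that penis cells are compared with below. How many penis to limb differences were lost when 4 markers were required is given after the gene lists below.

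**Figure D1:**
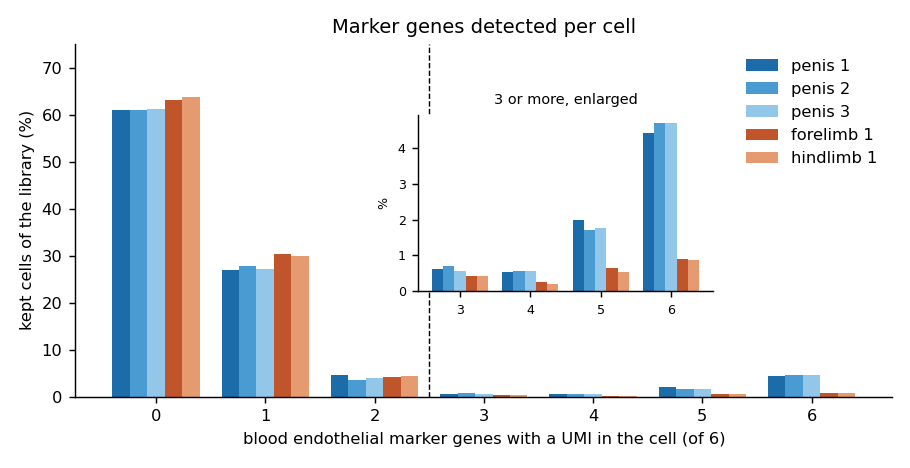
Percent of the kept cells of each library (vertical axis) by the number of the 6 blood endothelial marker genes with a UMI in the cell (horizontal axis, 0 to 6), with 1 bar per library, the rule's threshold dashed and an enlarged inset from 3 markers on. Cells later dropped for lymphatic genes are included. Between 60.9% and 61.2% of the penis cells had none of the markers, and a second rise stood at 6 markers, with 4.42% to 4.71% of penis cells.

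Transcripts of other cell types were present in the chosen cells. Of the 1220 penis cells, 197 (16.1%) also had a UMI of 3 or more of 6 markers of mesenchyme, leukocytes, keratinocytes, glia, pericytes or smooth muscle, and are called mixed. Among the limb blood endothelial cells 223 of 717 (31.1%) were mixed. Summed over their 6 markers, mesenchyme genes reached 196 to 253 CPM in the penis cells and 491 to 607 CPM in the limb cells, and leukocyte genes 21.0 to 24.7 CPM against 140 to 170 CPM. Chondrocyte genes reached 20.3 to 27.1 CPM against 164 to 243 CPM, and hemoglobin and other red blood cell genes 2135 to 5802 CPM against 5477 to 8370 CPM. In the other penis cells the red blood cell genes reached 4665 to 5859 CPM, so their level in the chosen cells was not below that range in every library. Pericyte genes reached 95.8 to 262 CPM in the penis cells, 181 to 187 CPM in the limb cells and 247 to 279 CPM in the other penis cells. Smooth muscle genes reached 91.0 to 189, 56.2 to 84.7 and 336 to 377 CPM. The penis and limb ranges overlapped for red blood cell and pericyte genes and for keratinocyte genes, 60.6 to 328 CPM in the penis cells against 21.1 to 108 CPM. The part of these transcripts in the results below was not tested, except where values without the mixed cells are given.

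Blood endothelial cells made up 6.23% of the kept cells of penis 1, 6.44% of penis 2 and 5.97% of penis 3, with exact 95% binomial intervals of 5.67 to 6.83, 5.88 to 7.03 and 5.37 to 6.62. The forelimb share was 1.79% and the hindlimb share 1.57%. The penis mean of 6.21% ± 0.232 (SD, n = 3) thus lay 4.53 percentage points above the limb mean of 1.68% ± 0.150 (n = 2), and the shares of the 2 tissues did not overlap. With 2 markers required the means were 10.2% and 5.96%, so the ratio of the tissues depended on the marker number. An exact two-sided permutation test over the 5 libraries gave p = 0.1, the smallest that 3 against 2 can give. These are shares of captured cells, and the cell limits differed between the tissues as given above. With the penis limits 155 forelimb and 149 hindlimb blood endothelial cells remained, beside 16540 and 16278 other cells. The median mitochondrial share of the blood endothelial cells was 5.12% in forelimb and 4.44% in hindlimb. In penis 1, 2 and 3 it was 2.29%, 2.33% and 2.40%.

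The blood endothelial cells were next set against all other kept penis cells, those dropped for lymphatic genes included. The sums of both cell sets came from the same libraries and were fitted with edgeR's quasi-likelihood model with the library as a block. A gene counts here as past the limits when its Benjamini-Hochberg adjusted p was under 0.01 and its log2 fold-change above 1 or under −1. Because the transcripts that chose the cells belong to this same contrast, what follows describes the chosen cells and is not a test of them, and no p is given. Of 18576 genes, 1686 (9.08%) lay past the limits on the higher side and 2962 (15.9%) on the lower side, and the median log2 fold-change over all genes was −0.07.

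The 10 genes furthest above the other penis cells, among those of at least 50 CPM, were *Prnd*, *Gpihbp1*, *Sox17*, *Robo4*, *Adgrl4*, *Aplnr*, *Ptprb*, *Adgrf5*, *Myct1* and *Abcb1a*. *Prnd*, the doppel gene of brain endothelium and testis, stood at 199, 162 and 167 CPM in the blood endothelial cells of the 3 libraries and at 2.59, 2.57 and 2.12 CPM in the other cells, a log2 fold-change of 6.27 ± 0.08 (SE). *Gpihbp1*, which carries lipoprotein lipase across capillary walls, stood at 194, 181 and 179.7 CPM against 2.84, 2.76 and 3.24 CPM (6.08 ± 0.07). *Sox17*, a transcription factor of arterial endothelium, stood at 121, 94.7 and 95.3 CPM against 1.51, 1.85 and 2.06 CPM. *Robo4* and *Ptprb*, which steady vessel walls, the adhesion receptor genes *Adgrl4* and *Adgrf5*, the apelin receptor gene *Aplnr*, *Myct1* and the efflux pump gene *Abcb1a* had log2 fold-changes of 5.63 to 5.88. That the blood endothelial and other sums did not overlap was a condition for naming the 10.

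For 6 of these 10 genes RefSeq gave a promoter window of 300 bases (250 before to 50 after a transcript start) on the GRCm38.p6 build. The windows of *Prnd* and *Myct1* are shown because they hold the letters ACNGGAAG, the core that ETS factors such as ERG and FLI1 bind, searched on both strands. Both windows lie on the plus strand and are written 5′ to 3′, with the matching letters in capitals.
*Prnd* (chr2:131950611-131950910): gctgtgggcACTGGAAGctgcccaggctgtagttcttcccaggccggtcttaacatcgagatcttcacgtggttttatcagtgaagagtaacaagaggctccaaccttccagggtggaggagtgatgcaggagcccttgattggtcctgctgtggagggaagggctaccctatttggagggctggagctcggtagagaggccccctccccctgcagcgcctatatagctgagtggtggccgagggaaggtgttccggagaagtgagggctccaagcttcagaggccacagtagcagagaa
*Myct1* (chr10:5593478-5593777): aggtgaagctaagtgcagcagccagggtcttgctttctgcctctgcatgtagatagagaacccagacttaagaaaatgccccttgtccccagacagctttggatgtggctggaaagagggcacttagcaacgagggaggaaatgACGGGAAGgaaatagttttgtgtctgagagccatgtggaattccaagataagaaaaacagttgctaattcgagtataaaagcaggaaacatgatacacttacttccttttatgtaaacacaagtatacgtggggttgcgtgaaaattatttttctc
The match begins 241 bases before the start in *Prnd* and 106 bases before it in *Myct1*. The letters stood in 2 of 8 windows of the named genes (25.0%), in 2 of 17 windows of the pan-endothelial list (11.8%), in 0 of 22 windows of the endothelial transcription factor list and in 8.15% of all 32851 windows. The SOX letters AACAAT stood in 0 of 8, in 3 of 17 (17.6%), in 1 of 22 (4.55%) and in 10.7% of all windows. These are counts of letters and not of bound sites.

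Endothelial transcription factors made the second large group. Of 26, 23 lay past the limits on the higher side and 0 on the lower side, with a median log2 fold-change of 3.32. Of 14 junction genes 10 were higher and 0 lower (median 2.77), *Cldn5*, the main claudin of endothelial tight junctions, at 643, 559 and 555 CPM against 18.1, 17.4 and 24.4 CPM. Of 10 genes of caveolae and fenestrae 9 were higher (median 2.06), with *Plvap*, which forms the diaphragms of fenestrae and caveolae, at 334, 311 and 321 CPM against 8.45, 7.39 and 9.02 CPM. Of 14 basement membrane genes 9 were higher (median 1.26), with *Col4a1*, a chain of collagen IV, at 1671, 1652 and 1828 CPM against 361, 362 and 383 CPM.

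Genes that act on vessel tone lay on both sides. Of 22, 11 were higher in the blood endothelial cells and 5 lower. The nitric oxide synthase gene *Nos3* stood at 69.1, 62.6 and 70.9 CPM against 2.37, 2.19 and 2.93 CPM in the other cells, and the endothelin gene *Edn1* at 41.5, 44.2 and 40.0 CPM against 2.51, 2.78 and 2.39 CPM. *Ednra*, an endothelin receptor of smooth muscle, stood at 14.6, 23.7 and 27.4 CPM against 107, 104 and 109 CPM, and *Pde5a*, the phosphodiesterase that breaks down cyclic GMP, at 21.7, 27.0 and 27.9 CPM against 124, 122 and 126 CPM. *Nos3* and *Edn1* were higher and *Ednra* and *Pde5a* lower in the blood endothelial cells of each of the 3 libraries. Among the 5 lower genes were also *Ptgis*, the prostacyclin synthase gene, at 85.7, 86.7 and 93.8 CPM against 209.5, 188 and 186 CPM, which fell under the fold limit without penis 1 (−0.96), and *Nppc*, which encodes C-type natriuretic peptide, at 1.60, 3.35 and 2.06 CPM against 19.2, 19.8 and 22.0 CPM. *Angpt2*, an angiopoietin best known from endothelium, was lower in the blood endothelial cells than in the rest, 35.8, 31.2 and 31.2 CPM against 117, 117 and 111 CPM.

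Of 20 position genes, the Hox and other transcription factors that mark where along the body a tissue lies, 16 were lower in the blood endothelial cells and 2 were higher, with a median log2 fold-change of −2.29. The higher pair were neighbours in the HoxD cluster. *Hoxd8* stood at 69.5, 48.8 and 57.1 CPM against 6.18, 6.41 and 7.42 CPM in the other penis cells (3.23 ± 0.12), and *Hoxd9* at 43.1, 37.7 and 44.1 CPM against 7.26, 6.27 and 7.69 CPM (2.66 ± 0.10). Neither pair of sums overlapped.

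The genes furthest on the lower side were those of other cells in the tissue. They were the neutrophil genes *S100a9* and *S100a8*, the myeloid genes *Lyz2*, *Cd74*, *Tyrobp* and *Plac8*, the matrix genes *Spp1*, *Col2a1* and *Col11a1*, and *Il1rapl2*. *Lyz2*, the lysozyme of macrophages, stood at 3.19, 2.51 and 3.24 CPM against 194, 156 and 190.1 CPM, and *Col2a1*, the collagen of cartilage, at 5.70, 5.45 and 4.12 CPM against 99.0, 130.4 and 116 CPM. All 6 markers of mesenchyme, of leukocytes and of chondrocytes were on the lower side. Of the 6 red blood cell markers 0 lay past the limits on either side, with a median log2 fold-change of −0.38.

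A UMI of 1 lymphatic gene did not exclude a cell, and 1 such gene was common in the chosen penis cells. *Prox1*, the transcription factor that sets lymphatic endothelial identity, had a UMI in 133 of 423 cells of penis 1 (31.4%, exact 95% interval 27.0 to 36.1), in 137 of 456 of penis 2 (30.0%, 25.9 to 34.5) and in 124 of 341 of penis 3 (36.4%, 31.2 to 41.7). In the limb it had a UMI in 22 of 394 forelimb cells (5.58%, 3.53 to 8.33) and 20 of 323 hindlimb cells (6.19%, 3.82 to 9.40). The penis shares were all above the limb shares. These shares depend on the drop, which removed further cells with *Prox1*. Of the dropped cells, 77 of 93 in the forelimb and 66 of 91 in the hindlimb had a *Prox1* UMI. In penis 1, 2 and 3 the dropped cells with one were 88 of 90, 84 of 87 and 92 of 92. In the limb the drop thus took out more cells with *Prox1* than it left, and in the penis fewer. After each cell was thinned to 2000 UMIs the shares were 12.9%, 10.2% and 13.5% in the penis against 3.00% and 0.658% in the limb. Without thinning, cells that should lack the gene had it in 2.46% (penis leukocytes) and 0.519% (penis keratinocytes), and all other penis cells in 5.63%. The other penis cells include the 269 that the rule dropped for lymphatic genes, so 5.63% is not a background value. Leukocytes had median depths of 6390 to 7217 UMIs and keratinocytes of 5567 to 9008. *Prox1* stood at 79.1, 72.1 and 77.7 CPM in the penis cells and at 8.88 and 7.65 CPM in the limb cells. The rule reads *Prox1*, so no test is given.

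The other 3 lymphatic genes of the rule had lower shares than *Prox1* in the chosen penis cells. *Mmrn1* had a UMI in 0.709%, 0.877% and 1.17% of the chosen penis cells and *Reln* in 0.236%, 0.877% and 0.293%. *Flt4*, the VEGF-C receptor gene, which young blood vessels also use, had a UMI in 22.5%, 16.7% and 12.3%. By the rule a cell could carry only 1 of the 4. Of the 269 penis cells that the rule dropped, 157 were dropped for *Prox1* with *Flt4* alone, 33 for *Prox1* with *Mmrn1* alone, and 48 had all 4 genes. The dropped penis cells had a UMI of *Sele* in 41.6% and of *Vwf* in 30.9%, genes of venous blood endothelium. In the chosen cells the shares were 36.6% and 39.5%.

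Chosen penis cells with a *Prox1* UMI differed in other genes from those without, which is given as a description over the 3 libraries, since the deeper cells are more likely to show a *Prox1* UMI. Their median depth was 10568, 10733 and 9703 UMIs against 8592, 8771 and 8493. *Tll1*, a BMP-1-like protease gene, stood at 451, 331 and 477 CPM in cells with *Prox1* and at 180, 215 and 273 CPM in cells without. *Foxc2*, a transcription factor of vessel valves and veins, stood at 99.7, 72.6 and 100.0 CPM against 45.1, 49.0 and 53.0 CPM. *Gpm6a*, a membrane glycoprotein gene best known from neurons, stood at 254, 244 and 290 CPM against 102, 112 and 129 CPM. For these 3 genes the lowest library with *Prox1* lay above the highest without it. The genes named here and in the next paragraph were picked with earlier results of these data known, and were not tested. The share of all genes without overlap between cells with and without *Prox1* is not given, so a lack of overlap is no added support. The split also depends on the rule, since a chosen cell with *Prox1* cannot have a UMI of *Flt4*, *Mmrn1* or *Reln*.

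Further genes on the *Prox1* side were *Lypd6* (mean 198 against 83.4 CPM), *Cp* (220.3 against 111 CPM), *Agr2* (144 against 68.7 CPM), *Bmp6* (284 against 155 CPM), *Sele* (148 against 87.9 CPM) and *Tek* (557 against 392 CPM). On the other side stood *Cxcl12*, at 57.8 CPM with *Prox1* against 198 CPM without, and *Plvap*, a gene of fenestrated endothelium, at 261 against 356 CPM. The 6 arterial genes that define the arterial class below did not all go one way. *Sox17* (72.5 against 122 CPM), *Hey1* (13.5 against 24.0 CPM), *Sema3g* (7.44 against 20.8 CPM) and *Gja5* (2.63 against 8.21 CPM) were lower in cells with *Prox1*, without overlap of libraries, while *Gja4* (86.1 against 91.2 CPM) and *Bmx* (58.1 against 57.3 CPM) overlapped. The lymphatic gene *Lyve1* was low in both, 10.6 against 6.83 CPM. *Nts* was uneven, 195, 65.8 and 10.1 CPM in cells with *Prox1*.

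**Figure D2:**
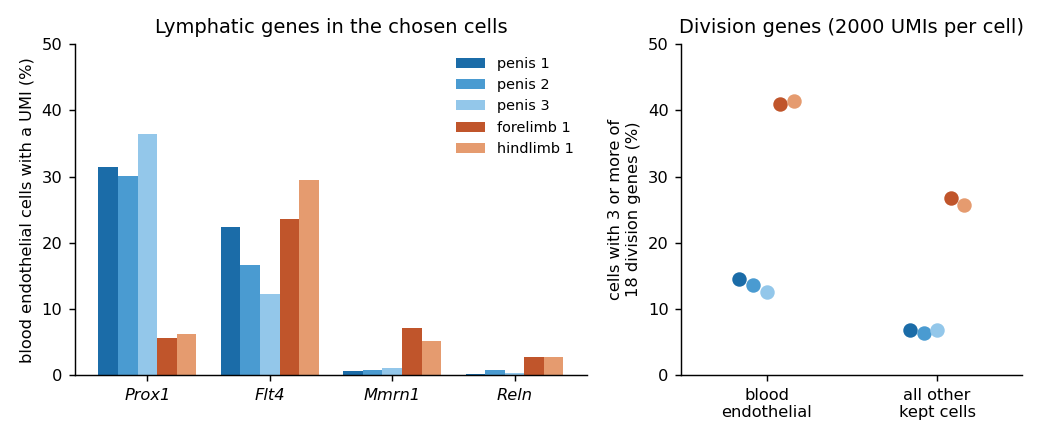
Left, percent of the blood endothelial cells with a UMI of each of the 4 lymphatic genes, 1 bar per library. Right, percent of blood endothelial and of all other kept cells with a UMI of 3 or more of 18 division genes after thinning to 2000 UMIs, 1 point per library. *Prox1* stands at 30.0% to 36.4% in the penis and at 5.58% and 6.19% in the limb libraries, and the division shares are highest in the limb blood endothelial cells.

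Division genes were more frequent in blood endothelial than in other penis cells. After thinning to 2000 UMIs, 14.6%, 13.7% and 12.6% of the blood endothelial cells of penis 1, 2 and 3 had a UMI of 3 or more of 18 division genes (13.6% ± 1.02, SD, n = 3). In the other penis cells the shares were 6.88%, 6.44% and 6.86%, and the 2 sets of libraries did not overlap. In the limb the shares were 41.2% ± 0.407 (n = 2) in blood endothelial and 26.2% ± 0.838 in other cells. Thinning left out 19, 25 and 15 shallower blood endothelial cells of the penis libraries and 27 and 19 of the limb libraries. Of the 18 division genes, *Mki67*, *Cdk1*, *Birc5* and *Ccnb2* lay past the limits above the other penis cells and 0 lay below. *Mki67* (0.99) and *Ccnb2* (0.95) fell under the fold limit without penis 1, and *Cdk1* (0.99) after thinning. *Mki67*, which encodes the proliferation antigen Ki-67, stood at 104, 95.5 and 100.0 CPM against 48.4, 46.3 and 60.2 CPM.

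The comparison with limb blood endothelial cells used the same rule on both sides and was tested with edgeR's quasi-likelihood test on 3 penis against 2 limb sums. Out of 13905 genes, 1054 (7.58%) stood higher in penis and 1224 (8.80%) stood lower, at a Benjamini-Hochberg adjusted p under 0.01 and a log2 fold-change past 1. The median log2 fold-change over all genes was 0.00. Genes that pass these limits are called higher or lower from here on. Where libraries are said not to overlap, this describes the values of called genes and is no added support. The share of all genes without overlap is not given here. The marker genes chose the cells in both tissues, so their levels do not calibrate the comparison. Those other than *Egfl7* are given as a description. *Cdh5* stood at 733, 669.5 and 719.6 CPM in penis and 630.0 and 704 CPM in limb. *Kdr* stood at 305, 273 and 308 against 303 and 339.6 CPM, and *Pecam1* at 758, 646 and 767 against 658 and 639 CPM. The libraries of the 2 tissues overlapped for these 3. *Emcn* (1059, 931 and 1026 against 426 and 373 CPM) and *Tie1* (254, 209.7 and 229.8 against 100.2 and 92.3 CPM) did not overlap. Of the 23 pan-endothelial genes 8 were higher in penis and 0 lower, with a median log2 fold-change of 0.79. Of the 8, *Cldn5*, *Cd93*, *Mmrn2* and *Plxnd1* fell under the fold limit without mixed cells, at 0.51, 0.51, 0.82 and 0.65, and also after thinning and with 4 markers required.

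The 10 genes named as furthest above the limb were *Agr2*, *Cp*, *Sele*, *Mustn1*, *Cstdc5*, *Synm*, *Foxc2*, *Pcp4l1*, *Gpm6a* and *Lypd6*. They were taken from called genes of at least 50 CPM in penis whose libraries did not overlap. *Agr2*, a protein disulfide isomerase gene of secretory epithelia, stood at 109.9, 82.1 and 96.5 CPM in penis 1, 2 and 3 and at 0.507 and 0.527 CPM in forelimb and hindlimb, a log2 fold-change of 7.47 ± 0.28 (SE, adjusted p = 3.83e-10, edgeR). The limb level of *Agr2* rested on 4 UMIs in all, so the size of its fold is uncertain. The other penis cells held 3.34, 3.22 and 3.74 CPM of *Agr2*. *Cp*, the copper-binding plasma protein ceruloplasmin, stood at 137, 129 and 189 CPM against 2.54 and 1.58 CPM (6.18 ± 0.25, adjusted p = 8.44e-10), and at 10.5, 11.3 and 12.4 CPM in the other penis cells. The other limb cells held 0.0596 and 2.96 CPM of the 2 genes, so both stood highest in the penis blood endothelial sums among the 4 cell sets.

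*Foxc2* stood at 64.3, 57.0 and 72.1 CPM against 3.04 and 1.58 CPM (4.78 ± 0.22, adjusted p = 2.59e-09). *Pcp4l1*, a small protein gene named for its likeness to a calmodulin regulator, stood at 428, 394 and 394 CPM against 15.5 and 17.4 CPM (4.64 ± 0.12, adjusted p = 2.93e-11). *Mustn1*, *Synm* (the intermediate filament protein synemin), *Gpm6a* and *Lypd6* stood at 144, 58.9, 169 and 126 CPM on average in penis and at 4.10, 2.07, 6.86 and 5.33 CPM in limb. That no penis library overlapped a limb library was a condition for naming the 10. The exception in evenness was *Cstdc5*, at 16.9, 134 and 14.1 CPM, where penis 2 held most of the level. The other penis cells held 164 CPM of it, more than the blood endothelial cells, and the call was lost with penis limits for the limb cells or without either limb library, at log2 fold-changes that stayed large (7.31, 5.43 without the forelimb and 4.80 without the hindlimb).

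**Figure D3:**
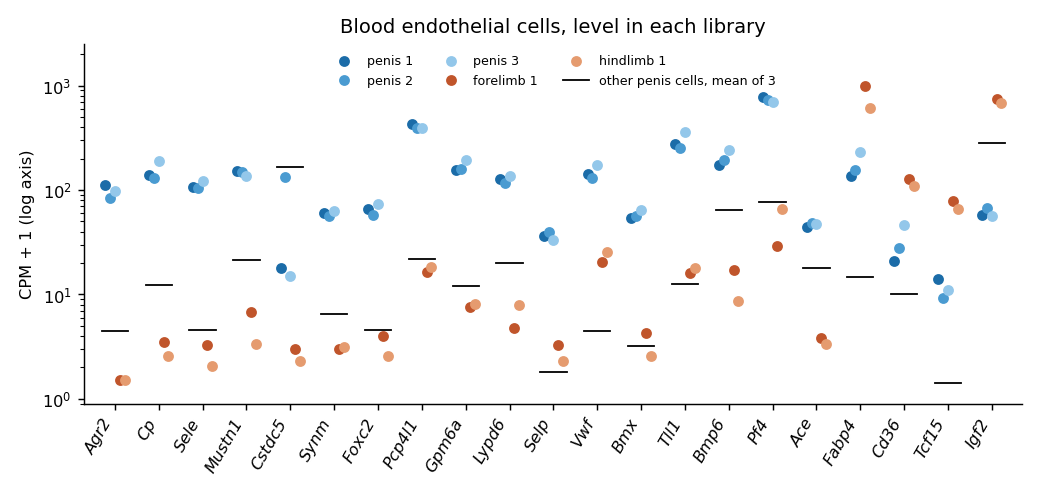
CPM + 1 (log axis) of 21 genes in blood endothelial cells, 1 point per library for the 3 penis, the forelimb and the hindlimb libraries, with a bar at the mean of the other penis cells. The 10 genes named as furthest above the limb come first, followed by genes of the lists. *Sele* stands at 104 to 120 CPM in the penis points and at 2.28 and 1.05 CPM in the limb points, and *Fabp4*, *Cd36*, *Tcf15* and *Igf2* are lower in the penis points.

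Of 11 genes by which vessels catch leukocytes, 6 were higher in penis, 1 was lower (*Madcam1*), and the median log2 fold-change was 1.13. *Sele*, which encodes E-selectin, stood at 106, 104 and 120.0 CPM in penis and 2.28 and 1.05 CPM in limb (6.02 ± 0.21, adjusted p = 1.63e-10). A *Sele* UMI was seen in 34.8, 37.3 and 37.8% of the blood endothelial cells of penis 1, 2 and 3 and in 1.52 and 0.929% of those of forelimb and hindlimb. After thinning to 2000 UMIs the shares were 14.6, 12.5 and 15.6% against 0.545% in the forelimb and 0 of 304 cells in the hindlimb, which allows up to 0.987% of cells with a UMI at that depth and sets no limit on cells that express the gene. Without thinning, penis leukocytes had a *Sele* UMI in 0.290% and keratinocytes in 0.104%. The share with a UMI was higher in every penis library than in both limb libraries, with and without thinning. *Selp*, P-selectin, stood at 35.6, 38.8 and 32.4 against 2.28 and 1.32 CPM (4.30 ± 0.25, adjusted p = 2.03e-08). A *Selp* UMI was seen in 15.1, 14.7 and 15.5% of the penis cells and 1.52 and 1.55% of the limb cells, against 3.19% of penis leukocytes. *Ly6c1* and *Ly6a*, surface proteins of capillary and arterial endothelium, were higher by log2 fold-changes of 2.15 and 2.40, though other penis cells held 103 CPM of *Ly6a* against 49.5 in the blood endothelial cells.

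Venous genes went the same way. *Vwf*, the von Willebrand factor that platelets bind, stood at 142, 128 and 172 CPM in penis and 19.3 and 24.5 CPM in limb (2.76 ± 0.14, adjusted p = 6.29e-09). Of 11 further venous genes 6 were higher in penis and 0 lower, with a median log2 fold-change of 1.05. *Tll1* stood at 275, 254 and 356 against 15.2 and 16.9 CPM (4.21 ± 0.16, adjusted p = 3.97e-10). *Tek*, the receptor TIE2 for angiopoietins, stood at 431, 438 and 487 against 113 and 99.1 CPM (2.11 ± 0.10, adjusted p = 1.92e-09). The libraries of the 2 tissues did not overlap for these 3 genes. *Il6st*, *Bmp4*, *Lrg1* and *Flrt2* were also higher, by 1.44, 1.60, 1.97 and 1.05, and *Flrt2* fell below the fold limit without mixed cells (0.92). *Nr2f2* was higher by 1.23, and by 0.83, under the fold limit, with the cells dropped for lymphatic genes put back.

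Arterial genes gave a mixed picture. Of 6 arterial genes of the class described below, *Bmx* was higher and *Gja5* lower. *Bmx*, a cytoplasmic tyrosine kinase gene of arterial endothelium, stood at 53.3, 55.9 and 63.2 CPM in penis and 3.30 and 1.58 CPM in limb (4.54 ± 0.22, adjusted p = 3.96e-09), and a *Bmx* UMI was seen in 28.6, 30.9 and 28.1% against 2.79 and 1.55% of cells. Penis leukocytes had a *Bmx* UMI in 8.70%. *Gja5*, the arterial gap junction gene connexin 40, stood at 7.75, 4.82 and 5.88 CPM against 10.4 and 28.5 CPM (−1.63 ± 0.36, adjusted p = 0.00202), and the call was lost without the hindlimb library (−0.75), without penis 3 (−1.60) and with penis limits for the limb cells (−1.36). Of 16 other arterial genes 7 were higher and 1 lower (median 0.47). The lower one, *Unc5b*, stood at 27.6, 23.5 and 24.1 against 44.7 and 75.9 CPM, and fell short of the fold limit without the hindlimb library (−0.82) and with penis limits for the limb cells (−0.77).

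In the Notch pathway, which separates arteries from veins and tip cells from stalk cells, 4 of 14 genes were higher in penis and 2 lower. Of the 4, *Hey2* lost its call without mixed cells (0.79), in DESeq2 (1.13) and without penis 1, penis 2, the forelimb or the hindlimb (1.04 to 1.16), and *Jag2* without mixed cells (0.47), after thinning (0.52) and without penis 3 (0.98). The ligand gene *Dll1* stood at 41.9, 41.7 and 46.8 CPM in penis and 5.58 and 6.59 CPM in limb (2.84 ± 0.17, adjusted p = 2.23e-08), and *Jag1* at 86.6, 71.0 and 83.3 against 24.4 and 27.2 CPM (1.65 ± 0.13, adjusted p = 2.62e-07). The target and feedback gene *Nrarp* went the other way, 30.3, 23.7 and 26.5 against 60.1 and 80.4 CPM (−1.37 ± 0.15, adjusted p = 5.3e-06), as did the target gene *Heyl* (−1.93), which lost its call with penis limits for the limb cells (−1.55). In none of these genes did the 2 tissues overlap.

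Of 22 genes of vessel tone 8 were higher in penis and 1 lower. Their median log2 fold-change of 0.63 did not exceed the 0.79 of the pan-endothelial list. *Ace*, the angiotensin-converting enzyme, stood at 43.5, 47.1 and 46.8 CPM in penis and 2.79 and 2.37 CPM in limb (4.15 ± 0.20, adjusted p = 3.09e-09). *Calcrl*, the receptor for adrenomedullin and CGRP, stood at 470.3, 476 and 585 against 84.0 and 82.5 CPM (2.63 ± 0.11, adjusted p = 8.51e-10). *Edn1* stood at 41.5, 44.2 and 40.0 against 10.1 and 19.2 CPM (1.53 ± 0.20, adjusted p = 3.43e-05). All penis libraries lay above both limb libraries for these genes. *Nos3* did not pass the limits: it stood at 69.1, 62.6 and 70.9 against 36.8 and 31.4 CPM, a log2 fold-change of 1.00 ± 0.12 just under 1 with an adjusted p of 1.63e-05.

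*Gucy1a1*, a subunit of the nitric oxide receptor, was higher by 2.00 ± 0.16 (adjusted p = 4.79e-07). *Ptgis*, the prostacyclin synthase, was higher by 2.26 ± 0.12, but at 88.8 CPM it stood below the 195 CPM of the other penis cells. *Ramp2*, *Ptgs1* and *Npr1* were higher by 1.20, 1.47 and 1.08, and fell to 0.60, 0.94 and 0.53 without mixed cells, under the fold limit. The gene that was lower was *Nppc*, the C-type natriuretic peptide, at 1.60, 3.35 and 2.06 CPM against 11.2 and 18.5 CPM (−2.60 ± 0.34, adjusted p = 3.3e-05). Its other penis cells held 20.3 CPM and its other limb cells 25.5 CPM.

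Transporters and other genes best known from vessels with a tight barrier, as in the brain, were mostly higher. Of 10 tested, 7 were higher and 1 lower, with a median log2 fold-change of 1.54. *Abcb1a*, the efflux pump P-glycoprotein, stood at 73.0, 65.6 and 91.8 CPM in penis and 10.7 and 7.12 CPM in limb (3.11 ± 0.19, adjusted p = 3.52e-08). *Slco1a4*, an organic anion carrier gene, stood at 18.5, 22.4 and 22.7 against 0.761 and 0 CPM (adjusted p = 3.16e-07), and no fold is given because the limb level rests on 3 UMIs. *Ocln*, the tight junction protein occludin, stood at 15.0, 11.7 and 15.6 against 1.78 and 1.05 CPM (3.29 ± 0.33, adjusted p = 3.5e-06). The tissues did not overlap for these 3 genes. *Slc7a5*, *Lef1* and *Apcdd1* were higher by 1.73, 1.69 and 1.40. *Abcg2* was higher by 1.09 and stood at 0.55 without mixed cells. *Itm2a* was lower, with a log2 fold-change of −1.89, and stood at −0.63 without them.

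**Figure D4:**
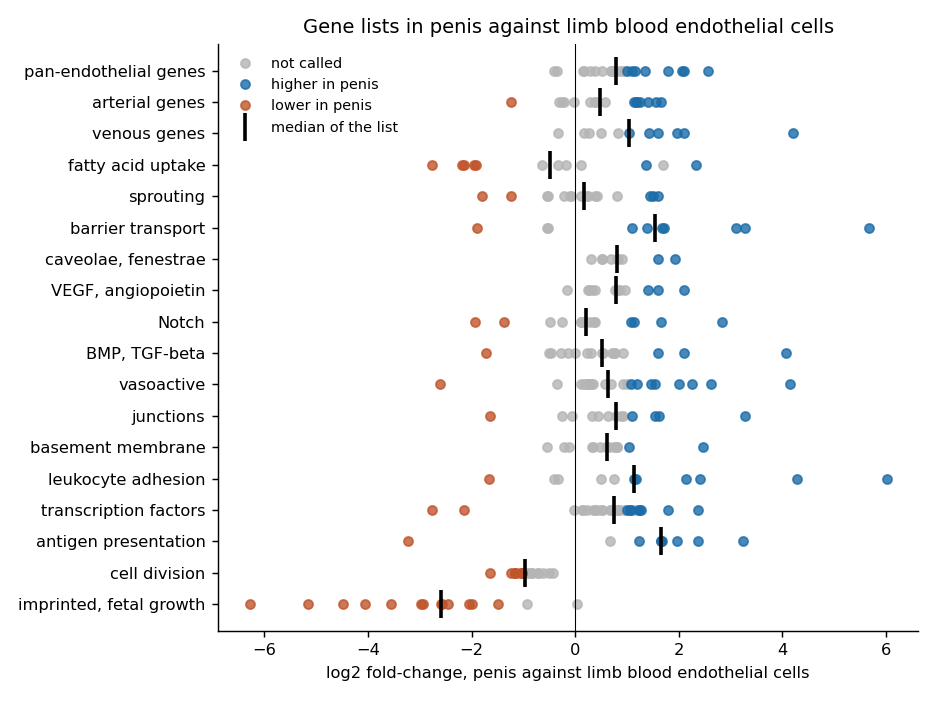
Log2 fold-change of penis against limb blood endothelial cells (horizontal axis) for the genes of 18 lists, 1 point per gene, with genes past the limits in blue (higher) or orange (lower), the others in grey, and a bar at the list's median. The imprinted and fetal growth genes and the division genes lie mostly left of 0, and the antigen presentation, barrier and venous genes mostly right of it.

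Several genes of fatty acid uptake in capillaries were lower. Of 12 capillary genes tested, 5 were lower and 2 higher (median −0.49). *Fabp4*, a fatty acid carrier of capillary endothelium, stood at 136, 156 and 232 CPM in penis and 985 and 605 CPM in limb (−2.19 ± 0.20, adjusted p = 1.21e-06). A *Fabp4* UMI was seen in 9.46, 8.33 and 11.1% of the penis cells and 51.5 and 44.6% of the limb cells. Its partner in uptake, *Cd36*, stood at 19.8, 27.0 and 45.0 against 125 and 108 CPM (−1.95 ± 0.20, adjusted p = 4.56e-06). *Tcf15* and *Meox2*, which together turn on *Cd36* in heart capillaries, stood at 13.0, 8.17 and 10.0 against 76.9 and 65.4 CPM and at 23.7, 23.9 and 30.0 against 114 and 116 CPM. Their log2 fold-changes were −2.76 ± 0.16 and −2.15 ± 0.11 (adjusted p = 2.33e-08 and 7.05e-09). No penis library reached the lower limb library in any of these 4 genes. *Cd300lg*, a capillary surface protein gene, and *Pparg* went the other way, by 2.34 and 1.37, the second falling to 0.68 without mixed cells.

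In the BMP and TGF-β pathway 3 of 17 genes were higher and 1 lower. The ligand gene *Bmp6*, which liver endothelium uses to sense iron, stood at 171, 193 and 241 CPM in penis and 16.2 and 7.65 CPM in limb (4.07 ± 0.21, adjusted p = 7e-09). *Bmper*, which binds BMPs outside the cell, was higher by 2.10, though the other penis cells held 309 CPM against 72.1. The receptor gene *Bmpr1a* was lower, with a log2 fold-change of −1.72. In the VEGF and angiopoietin list 3 of 12 were higher (*Tek*, *Nrp1* and *Angpt2*) and 0 lower. *Angpt2* stood at 0.30 without mixed cells, 0.29 with the cells dropped for lymphatic genes put back and 0.76 after thinning, all under the fold limit, and *Ptprb* fell just short of the fold limit at 0.97.

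Of 13 junction genes 4 were higher and 1 lower (median 0.78, against 0.79 for the pan-endothelial list), the lower one being *Gja5*. *Cldn5* was among the higher ones at 1.10 and fell to 0.66 when 4 markers were required and to 0.51 without mixed cells. Of 9 genes of caveolae and fenestrae 2 were higher and 0 lower (median 0.81). *Cavin3*, a coat protein of caveolae, stood at 834, 784 and 748 CPM against 208 and 209.6 CPM (1.93 ± 0.09, adjusted p = 3.43e-09). Of 14 basement membrane genes 2 were higher and 0 lower (median 0.62), with *Lama5*, the laminin chain of mature vessel walls, at 38.1, 32.5 and 33.8 against 8.12 and 4.48 CPM (2.47 ± 0.21, adjusted p = 7.96e-07). Every penis library lay above both limb libraries for *Cavin3* and *Lama5*.

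Of 26 endothelial transcription factors 8 were higher and 2 lower (median 0.75, against 0.79 for the pan-endothelial list), the lower pair being *Tcf15* and *Meox2*. Without mixed cells 4 of the 8 fell under the fold limit, *Elk3* at 0.48, *Epas1* at 0.80, *Bcl6b* at 0.52 and *Meox1* at 0.64, and *Foxc1* did so with penis limits for the limb cells (0.89). *Lyl1* and *Tal1*, partners in blood and endothelial development, stood at 34.4, 36.0 and 35.0 against 7.36 and 6.33 CPM and at 80.9, 65.2 and 71.2 against 20.8 and 21.4 CPM, with log2 fold-changes of 2.37 ± 0.17 and 1.79 ± 0.13. Genes of antigen presentation and interferon response were mostly higher: of 9 tested 7 were higher and 1 lower, with a median of 1.66. Of the 7, *Tap1* lost its call without mixed cells (0.99), without penis 3 (1.14) and without the hindlimb (0.93), and *H2-Q4* with penis limits for the limb cells (1.05) and after thinning (1.61). The MHC class I gene *H2-D1* stood at 309, 265 and 265 against 81.4 and 63.3 CPM (1.96 ± 0.12, adjusted p = 2.47e-08), and *H2-K1* and *H2-T23* were higher by 2.37 and 3.24. The one lower gene was the MHC class II chaperone gene *Cd74*, whose call was lost without the hindlimb library (−1.72).

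Most genes on a list of fetal growth were lower in penis. Of 15 imprinted and fetal growth genes 13 were lower and 0 higher, with a median log2 fold-change of −2.59. *Igf2*, the fetal insulin-like growth factor, stood at 56.5, 66.6 and 55.3 CPM in penis and 739 and 678 CPM in limb (−3.55 ± 0.10, adjusted p = 3.38e-11). Its neighbour *H19*, a maternally expressed RNA, stood at 56.8, 66.8 and 53.0 against 894 and 1109.7 CPM (−4.06 ± 0.12). *Igf2bp1*, which binds *Igf2* mRNA, stood at 0.684, 1.89 and 1.47 against 101 and 117 CPM (−6.28 ± 0.21), and *Hmga2*, a chromatin protein of embryonic growth, at 2.51, 2.72 and 1.47 against 60.1 and 108 CPM (−5.15 ± 0.29). The libraries did not overlap for any of these genes. The other cells of the same libraries also differed: *Igf2* stood at 279.6 CPM in other penis and 732 CPM in other limb cells, and *Igf2bp1* at 6.59 and 112 CPM. Of 18 division genes 8 were lower in penis and 0 higher (median −0.96), *Ube2c* at 62.9, 62.6 and 35.6 against 182 and 166 CPM (−1.65 ± 0.17, adjusted p = 3.33e-06). Of the 8, *Top2a* (−0.81), *Tpx2* (−0.86) and *Mcm5* (−0.97) fell under the fold limit with penis limits for the limb cells, and *Tpx2* (−0.90) and *Mcm2* (−0.996) without mixed cells.

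Of 17 position genes tested 5 were higher in penis and 1 lower, and of these 6 only *Isl1* kept its call in every alternative that gave a value. *Hoxd10* lost it without penis 1 (0.92), penis 2 (0.99) or the forelimb (0.70), and *Foxf2* with penis limits for the limb cells (2.40) and without the forelimb (3.63) or the hindlimb (2.75). *Hoxd8* and *Hoxd9* were higher by 1.23 and 1.31, and fell to 0.80 and 0.99 without mixed cells, under the fold limit. *Isl1*, a transcription factor of the cloacal region and hindlimb, stood at 34.0, 41.1 and 37.9 against 0 and 1.32 CPM (5.81 ± 0.39, the limb level resting on 5 UMIs), but the other penis cells held 209.6 CPM, more than the blood endothelial cells. The lower one, *Hoxa10* (−1.20), also lost its call without mixed cells (−0.42) and without the hindlimb library (−0.70).

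The genes furthest on the lower side were mostly genes of other limb cells. They were the embryonic globins *Hbb-y* and *Hba-x*, the muscle actin *Actc1*, the mast cell proteases *Cma1*, *Cpa3* and *Tpsb2*, and *Igf2bp1*, *Adgrb3*, *Hs6st2* and *Hmga2*. *Cma1* stood at 0.684, 0 and 0.883 CPM in penis and 205 and 250.2 CPM in limb blood endothelial cells, and at 568 CPM in the other limb cells. *Hbb-y* stood at 0.456, 0 and 0 CPM in penis, 2 UMIs in all, and at 409 and 278 CPM in limb, against 163 CPM in the other limb cells. In the limb blood endothelial cells 5 of 5 muscle, 6 of 6 chondrocyte, 5 of 6 leukocyte and 4 of 6 mesenchyme markers were higher than in penis, while 2 of 3 glial and 2 of 4 smooth muscle markers were higher in penis. Of the blood endothelial cells 78.1% in limb and 14.3% in penis had a UMI of 3 or more red blood cell genes. The part of free RNA and of joined cells in these genes was not tested.

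Some of these calls depended on which cells were taken. Of the 141 list genes called between penis and limb, 24 lost their call and 113 kept it when 4 markers were required, 33 lost and 99 kept it without mixed cells, and 23 lost and 98 kept it after thinning, the others having no value. With 4 markers the losses took in 4 of 8 pan-endothelial genes, 4 of 10 endothelial transcription factors and 4 of 6 position genes, but 0 of 13 imprinted and fetal growth genes and 0 of 4 BMP and TGF-β genes. *Jag2* (0.73), *Hey2* (0.79), *Sparc* (0.83) and *Podxl* (0.69) were among the genes that fell under the fold limit in that setting. Calls that held in every alternative that gave a value, leaving out each library in turn included, numbered 13 of 13 imprinted and fetal growth genes, 4 of 4 BMP and TGF-β genes, 6 of 7 capillary genes, 6 of 8 barrier genes, 5 of 6 further venous genes, 5 of 7 leukocyte adhesion genes, 6 of 9 vessel tone genes and 5 of 8 antigen presentation genes. They numbered 4 of 8 pan-endothelial genes, 4 of 10 endothelial transcription factors, 4 of 8 division genes, 3 of 6 Notch genes, 2 of 5 junction genes and 3 of 8 of the other arterial genes.

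Whether a penis to limb difference was larger in blood endothelial cells than in the other cells of the same libraries was tested as an interaction in edgeR, with the library as a block. The contrast of chosen with other cells enters it in both tissues, so the choice of cells by their transcripts enters it too. The interaction was not run with 4 markers required or with penis limits for the limb cells. The limb cells at the edge of the rule thus stayed in it. Of 20238 genes, 526 (2.60%) had a difference further on the penis side in blood endothelial cells and 1068 (5.28%) one further on the limb side, and the median over all genes was −0.03. Without mixed cells these counts were 562 and 575 of 20190 genes, so the limb-side count depended on the mixed cells. Of the 10 genes furthest above the limb, *Foxc2*, *Cp* and *Synm* were also among the 10 largest interactions, at 4.46 ± 0.32, 4.31 ± 0.26 and 4.10 ± 0.28 (adjusted p = 1.45e-07, 3.1e-08 and 1.12e-07). *Tll1* had an interaction of 4.82 ± 0.14 (adjusted p = 2.58e-11): the other penis cells held 11.5 CPM and the other limb cells 16.5 CPM. *Sele* had one of 3.08 ± 0.34 (adjusted p = 1.2e-05), whose call was lost after thinning at a fold as large (3.11), and *Bmp6* one of 2.46 ± 0.21 (adjusted p = 9.28e-07). *Fabp4* had one of −2.60 ± 0.20 (adjusted p = 3.1e-07), with 13.8 and 10.0 CPM in the other cells. For *Tcf15* the interaction had the other sign, 1.43 ± 0.31 (adjusted p = 0.00332), with 7.39 CPM in the other limb and 0.423 CPM in the other penis cells. Its call was lost without mixed cells (0.95), after thinning (1.18), and without penis 1 (0.92), the forelimb (1.46) or the hindlimb (1.53).

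Of the 26 endothelial transcription factors 14 had an interaction on the penis side and 0 on the limb side, and 11 of the 14 kept it without mixed cells and 10 after thinning. Other lists went either way. Of 22 vessel tone genes 1 lay on the penis side and 5 on the limb side, and of 14 Notch genes 1 and 6. For 16 other arterial genes the counts were 3 and 4, and for 14 capillary genes 2 and 4. For 15 imprinted and fetal growth genes they were 1 and 8. For 12 further venous genes they were 3 and 0, for 11 barrier genes 5 and 0, and for 12 antigen presentation genes 3 and 1. In the same test, markers of other cells lay on the limb side: 6 of 6 of leukocytes (median −3.10), 5 of 6 of mesenchyme (−1.25) and 3 of 6 of pericytes (−1.20), and 0 of these on the penis side. Their part in the interactions was not tested. Such an interaction can come with blood endothelial levels that overlap. *Mecom* stood at 353, 320.3 and 384 CPM in penis and 382 and 341 CPM in limb blood endothelial cells, and at 18.8 against 304 CPM in the other cells. *Erg*, which keeps endothelial genes on, stood at 235, 218 and 242 against 132 and 139 CPM, and at 10.2 against 104 CPM in the other cells. In *Mecom* the 2 tissues overlapped in blood endothelial cells, and in *Erg* they did not.

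Within the penis, the blood endothelial cells were sorted by 6 arterial genes (*Gja5*, *Gja4*, *Sox17*, *Hey1*, *Bmx*, *Sema3g*) and 6 venous genes (*Nr2f2*, *Ephb4*, *Ackr1*, *Selp*, *Vwf*, *Sele*). Cells with a UMI of 2 or more of one set and under 2 of the other numbered 88 for the arterial genes (35, 32 and 21 by library, 7.21%) and 511 for the venous genes (179, 187 and 145, 41.9%). Another 311 (25.5%) had 2 or more of both and 310 of neither. The cells with both were deeper, with a median of 12000 UMIs, and after thinning to 2000 UMIs 18 of 1161 cells had both. The classes are thus ranges of gene detection that depend on depth. As with the contrast to other penis cells, the classes were cut from the same transcripts, so the comparison describes them and no p is given.

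Of 9299 genes, 118 (1.27%) lay past the limits above in arterial-gene cells and 56 (0.602%) below, with a median log2 fold-change over all genes of −0.00. Among genes not used to form the classes, the other arterial genes followed this axis more fully than the other venous genes, 3 of 11 of which lay past the limits. Of 14 other arterial genes 10 were higher in arterial-gene cells and 0 lower, with a median of 2.08. *Cxcl12*, the chemokine of arterial walls, stood at 1045, 948 and 688 CPM in the arterial-gene cells of penis 1, 2 and 3 and at 24.4, 31.0 and 53.4 CPM in the venous-gene cells (4.69 ± 0.26). Its receptor gene *Cxcr4* stood at 96.6, 47.4 and 94.7 against 4.58, 4.85 and 4.11 CPM (4.04 ± 0.37). *Stmn2*, a microtubule gene best known from neurons, stood at 202, 487 and 189 against 5.59, 13.6 and 4.79 CPM (5.18 ± 0.20). The arterial-gene libraries lay above all venous-gene libraries in each, and *Stmn2* was highest in penis 2.

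Of 11 Notch genes 5 were higher and 0 lower in arterial-gene cells, with a median log2 fold-change of 0.39. One of the 5, *Nrarp*, lost its call as each penis library was left out (1.38 to 1.57). *Dll4* stood at 146, 102 and 158 against 42.2, 43.2 and 45.9 CPM (1.60 ± 0.21), *Jag1* at 176, 186 and 208 against 54.9, 53.8 and 53.4 CPM (1.79 ± 0.17) and *Notch4* at 76.1, 64.3 and 114 against 19.8, 14.1 and 12.3 CPM (2.36 ± 0.31). *Unc5b*, a netrin receptor gene of arteries and tip cells, stood at 140.5, 98.2 and 107 against 9.66, 6.79 and 8.90 CPM (3.77 ± 0.28). The classes did not overlap in any of these. The ligand gene *Dll1* did not pass the limits and stood on the other side without overlap, at 23.4, 37.2 and 18.9 CPM in arterial-gene and 54.9, 46.1 and 54.8 CPM in venous-gene cells, and the receptor gene *Notch1* stood at 187, 207 and 164 against 139.9, 145 and 147 CPM (0.39 ± 0.15).

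Of 14 sprouting genes 6 were higher in arterial-gene cells and 0 lower, *Pdgfb*, which recruits pericytes, at 190.3, 193 and 164 against 70.2, 59.6 and 58.2 CPM. *Edn1* stood at 73.2, 135 and 120.0 against 18.8, 22.3 and 30.1 CPM (2.21 ± 0.25) and *Vegfc*, a growth factor for veins and lymphatics, at 228, 162 and 208 against 40.7, 34.9 and 39.0 CPM (2.37 ± 0.18). *Fbln5*, an elastic fibre protein, stood at 120.0, 281 and 663 against 28.5, 50.9 and 52.7 CPM, with a wide spread between libraries. The remaining named genes on this side were *Nebl*, *Ptprr*, *Shtn1*, *Prdm16*, *Egfl8* and *Tmem100*, with log2 fold-changes of 3.23 to 5.12. *Ptprr* lost its call without penis 2 (2.96) and *Shtn1* without penis 3 (2.81). The leukocyte gene *Laptm5* was also higher, 17.6, 27.1 and 37.9 against 1.53, 2.91 and 1.37 CPM, 1 of 2 leukocyte markers that could be fitted, and lost its call without penis 3 (3.27).

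**Figure D5:**
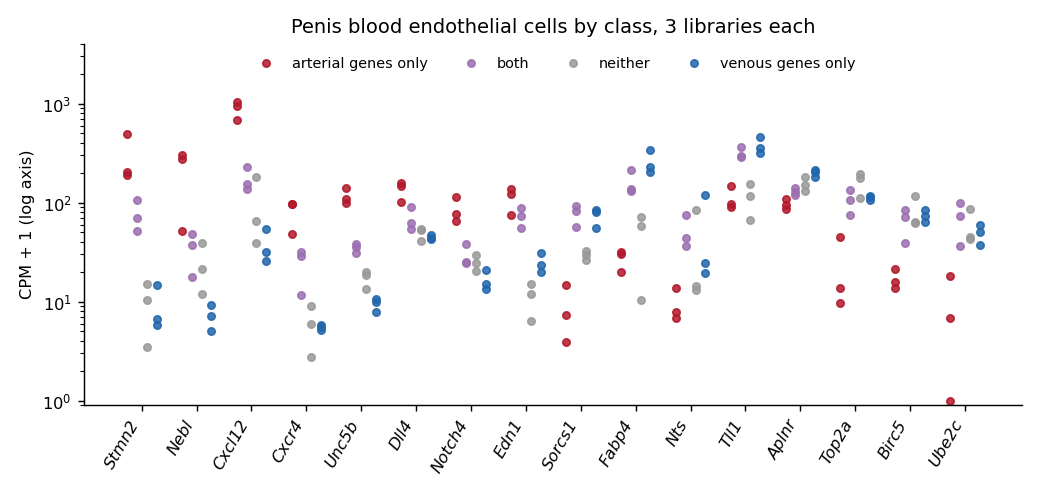
CPM + 1 (log axis) of 16 genes in the arterial-gene, venous-gene, both-gene and neither-gene blood endothelial cells of the penis, 1 point per library (3 per class). *Cxcl12* stands at 688 to 1045 CPM in arterial-gene cells and at 24.4 to 53.4 CPM in venous-gene cells, and *Fabp4* at 18.9 to 30.5 against 201 to 339 CPM.

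On the venous side, 3 of 11 other venous genes lay past the limits and 0 on the arterial side. *Tll1* stood at 352, 317 and 456 CPM in venous-gene and 96.6, 146 and 88.4 CPM in arterial-gene cells (−1.69 ± 0.20), *Aplnr* at 205, 180.4 and 213 against 93.7, 84.6 and 107 CPM and *Nrp2*, a co-receptor of veins and lymphatics, at 248, 206 and 244 against 99.5, 129 and 56.8 CPM. *Fabp4* stood at 201, 226 and 339 against 29.3, 30.5 and 18.9 CPM (−3.11 ± 0.24). *Sorcs1* and *Dlk1* stood at 83.4, 53.8 and 78.7 against 2.93, 13.5 and 6.32 CPM and at 87.0, 115 and 78.7 against 11.7, 16.9 and 25.3 CPM. None of these genes overlapped between the classes, and *Nrp2* lost its call without penis 3 (−1.01). After thinning to 2000 UMIs *Fabp4* (−1.85), *Aplnr* (−1.87) and *Nrp2* (−1.12) no longer passed the limits. Calls between the classes that held in every alternative that gave a value numbered 10 of 10 other arterial genes, 4 of 5 Notch genes, 5 of 6 sprouting genes, 2 of 5 division genes and 1 of 3 other venous genes. Of the 41 list genes past the limits between the classes, 17 still passed after thinning, 6 did not and 18 had no value.

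*Nts* and *Rgs5* were uneven between libraries. *Nts* stood at 119.5, 23.3 and 18.5 CPM in the venous-gene and 5.85, 6.77 and 12.6 CPM in the arterial-gene cells (log2 fold-change −2.95). Its call was lost without penis 1 (−1.27), in DESeq2 (−2.54) and without the library block (−2.84). *Rgs5*, a pericyte gene, stood at 28.5, 102 and 24.0 against 5.85, 13.5 and 0 CPM (−2.83). It lost its call without penis 2 (−2.76) and without the library block (−2.80), at folds almost as large. Of 18 division genes 5 were lower in arterial-gene cells and 0 higher, with a median of −1.84. Of the 5, *Mki67* lost its call without penis 3 (−2.15), and *Cdk1* (−1.54 and −1.98) and *Ube2c* (−2.07 and −2.29) lost theirs without penis 1 or penis 3. In DESeq2 *Mki67* (−2.055) and *Cdk1* (−2.03) also lost theirs. *Top2a* stood at 8.78, 44.0 and 12.6 CPM in arterial-gene and 116, 114 and 106 CPM in venous-gene cells (−2.32 ± 0.36), and *Birc5* at 14.6, 20.3 and 12.6 against 83.9, 71.8 and 63.0 CPM (−2.19 ± 0.32). The histone gene *Hist1h1b* and the replication gene *Pclaf* lay on the same side at −4.52 and −2.79, as did *Hist1h2ap*, which lost its call without penis 3 (−2.91). *Hist1h1b* lost its call in DESeq2, at a larger fold (−5.68). Each library had a lower level of these division genes in its arterial-gene than in its venous-gene cells. The arterial-gene sums held 341652, 295387 and 158345 UMIs in penis 1, 2 and 3. Low levels there, those of *Sorcs1* and *Rgs5* included, rest on few UMIs, so the size of these folds is uncertain.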

How the data were processed

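The authors deposited 1 UMI count for each gene in each barcode, unnormalized, made with Cell Ranger 7.0.0 against mm10 per the submitters' processing notes and the methods. Whether introns were counted is not given in the sources used here. The depth per library and its intervals stand with the results, and intervals cover counting error only. The study's limits on reads per cell were read as detected genes, doublets were not called beyond the mixed cells, and the 4 comparisons of sums were fitted with edgeR 4.0.16 (limma 3.58.1, R 4.3.3) using TMM scaling, the filterByExpr filter, quasi-likelihood F tests and p-values adjusted by Benjamini-Hochberg. Standard errors were had by dividing the size of the log2 fold-change by the root of F. DESeq2 1.42.0 served as an alternative. Shares used scipy 1.17.1, tables pandas 2.3.3, thinning numpy 2.4.6 and figures matplotlib 3.10.9, all in Python 3.11.15. The edgeR steps were also run on simulated counts. These were drawn without library effects, mixed cells or a choice of cells by markers, so that run cannot speak to any of them. A gene was named when it was among the 10 called genes with the largest fold-change in a direction, with at least 50 CPM in the higher group and no overlap of libraries, or as a member of a list. For the interaction the overlap was that of the log2 difference between blood endothelial and other cells of each library, and 50 CPM had to be reached in 1 cell set of 1 tissue. Left out by that rule were genes used by the cell rule, in the comparison of the classes also the genes that define them, Gm and Rik models, mitochondrial and ribosomal genes and sex-linked genes used for sexing. Members, lists and named genes were chosen with earlier results of these data known, so no list is independent support. Alternatives changed the normalization, filter, markers, mixed cells, depth, block and libraries. The one that put back cells with lymphatic genes was chosen after seeing the data. Both sums of a library share its cells' source, which is where the library block comes from. Promoter windows came from RefSeq (GRCm38.p6).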

Additional observations from a re-analysis of the deposited data

Results flagged for a closer look

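The difference between penis and limb in how far blood endothelial cells stood from the other cells of their library passed the interaction test for 20 named genes, given here as the difference of log2 fold-changes (blood endothelial against other cells, penis minus limb, edgeR, n = 3 penis and 2 limb libraries). On the penis side it was 4.82 for *Tll1*, 4.46 for *Foxc2*, 4.39 for *Lrrn1*, 4.31 for *Cp*, 4.27 for *Pf4* and 4.10 for *Synm*, genes whose blood endothelial level was higher in penis. *Pf4*, platelet factor 4, stood at 780.4, 724 and 699.6 CPM in penis and 28.2 and 64.6 CPM in limb blood endothelial cells, and a *Pf4* UMI was seen in 54.1, 51.8 and 51.3% against 7.87 and 7.43% of cells, with 27.7% in penis leukocytes. *Lrrn1*, a leucine-rich repeat protein gene, stood at 161, 135 and 162 against 12.4 and 5.27 CPM. It was 4.21 for *Erg*, 4.11 for *Ebf3* and 4.06 for *Mecom*, whose other limb cells held 104, 163 and 304 CPM against 10.2, 8.11 and 18.8 CPM in other penis cells. *Cnfn*, a gene of cornified epithelium, had 6.33, resting on penis 3 alone, whose blood endothelial cells held 157 CPM against 0 and 0.419 CPM in penis 1 and 2.

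On the limb side it was −4.99 for *Cd74*, −4.27 for *Cma1*, −3.30 for *Lyz2* and −3.13 for *Cpa3*, genes of leukocytes and mast cells, and all 4 lost their calls without mixed cells (−2.87, −2.10, −1.79 and −1.06). It was −3.82 for *Col15a1*, a basement membrane collagen at 286, 254 and 287 CPM in penis and 335 and 309 CPM in limb blood endothelial cells, whose other cells held 312 against 24.6 CPM. *Spon2*, a secreted matrix protein gene, had −3.12, with 82.3 CPM in other penis cells and 12.3 CPM in other limb cells. *Tmem255a* had −3.11, at 57.7, 53.4 and 60.9 against 139.5 and 156 CPM in blood endothelial cells. *Dcc*, a netrin receptor gene, and *Grm7*, a glutamate receptor gene, each had −3.06, and the call of *Dcc* was lost without mixed cells at a fold nearly as large (−2.80). *Srd5a2*, the steroid 5-alpha reductase of genital mesenchyme, had −3.22, with 69.0, 71.9 and 66.5 CPM in the other penis cells and 8.21, 7.96 and 7.65 CPM in the blood endothelial cells, and it changed sign without mixed cells.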

How the results depend on the processing

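The share of blood endothelial cells among kept penis cells was 10.2% with 2 markers (limb mean 5.96%), 5.63% with 4 (1.28%), 7.60% with no cells dropped for lymphatic genes (2.11%), 5.21% without mixed cells (1.16%), 4.83% with the cell limits read as UMIs (1.29%), and 6.10% to 6.33% as each penis library was left out. The division share was 8.41% at 1000 UMIs and 36.8% without thinning, and 13.1% to 14.1% as each penis library was left out. After thinning to 2000 UMIs fewer genes were tested, and some of those called were not called without thinning. In arterial-gene cells 64 were higher and 21 lower, of which 48 and 7 were shared with the unthinned calls. The classes were formed anew after thinning, from 64 arterial-gene and 262 venous-gene cells. Between penis and limb cells 560 were higher and 456 lower, of which 466 and 345 were shared. Interactions numbered 340 and 405, of which 277 and 327 were shared. Without mixed cells 121 genes were lower in arterial-gene cells, 654 in penis than limb cells and 575 in the interaction, and with 4 markers required 793 were lower in penis than limb cells. With no filter on low counts 189 genes were lower in arterial-gene cells. Leaving out each library gave 1502 to 1640 and 2379 to 2978 genes against other penis cells, 79 to 126 and 39 to 80 for the classes, 852 to 1006 and 873 to 1213 for penis against limb, and interactions of 415 to 486 and 665 to 1104, the limb-side count being lowest without the hindlimb (665) and the forelimb (712). Without the library as a block the counts were 1746 and 3233 against other penis cells and 139 and 77 for the classes. DESeq2 called 931 higher and 1084 lower in penis than limb cells. With penis limits for the limb cells 905 were higher and 1006 lower, of which 793 and 909 were shared with the main calls. With the cells dropped for lymphatic genes put back, 1073 were higher and 1287 lower, of which 944 and 1082 were shared with the counts above. The interactions of *Srd5a2* (3.91), *Ptprc* (0.91) and *Fcer1g* (0.90) changed sign without mixed cells, those of *Tbx5* (0.044) and *Col2a1* (0.32) after thinning, and that of *Cnfn* without penis 3 (−0.18 to 7.06 as each library was left out); the cause was not tested. The arterial-gene sums rested on 21 to 35 cells a library, and 9299 genes could be tested between the classes against 13905 between penis and limb.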
